A study of Mus musculus with 14 samples.

Results

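Unstimulated cells that carried wild type p65 were compared with TNFα-treated cells that carried no p65. The comparison used 6 of the 14 arrays of the series, chosen by their labels: wild type p65 at 0 h (3 arrays) and the empty vector pTV at 3 h (3 arrays). All cells were *p65*(-/-) mouse embryonic fibroblasts (MEFs), so the endogenous gene was disrupted in both groups. The wild type group had received myc-tagged p65 by lentiviral transfer and the pTV group the vector alone, and each was a pool of blasticidin-selected cells, so that 1 pool stands for each genotype. Both were starved overnight, and the pTV cells were then given 30 ng/ml TNFα for 3 h while the wild type cells were left untreated. Replicates were RNA isolations made on different days. Both p65 and TNFα therefore differed between the groups, and the series held no pTV array without TNFα. Below, "at rest" stands for unstimulated wild type cells set against pTV at 3 h of TNFα. A gene that was higher in the wild type cells was higher although these cells had received no TNFα. In either direction, the comparison cannot tell apart p65, TNFα and a difference between the pools. For the same genes, wild type p65 at 3 h of TNFα (3 arrays) is given beside each result, and a further group at 3 h of TNFα, KTR (3 arrays), which carried p65 with 3 lysines changed to arginine, shares the estimate of the spread. Since the 3 groups share arrays, each difference of wild type at 0 h over pTV equals the difference of wild type over pTV at 3 h minus the change by TNFα in wild type cells.

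NF-κB is a family of dimeric transcription factors, and p65 (RelA, encoded by *Rela*) is the subunit that carries most of its transactivating activity. In resting cells the p65/p50 dimer is held in the cytoplasm by inhibitor proteins of the IκB family. TNFα, a cytokine of inflammation, acts through its receptor and the IKK kinases to have IκB degraded, after which p65 enters the nucleus and induces cytokines, adhesion molecules, acute phase proteins and its own inhibitors. TNFα also activates the MAP kinases JNK, p38 and ERK, which induce immediate early genes and do not need p65 for this. Fibroblasts respond to TNFα and to interferons, and interferon-stimulated genes are driven by STAT and IRF factors.

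Values are log2 signals relative to the 75th percentile of the same array, so 0 stands for a signal at that percentile. The 75th percentile of the 6 arrays lay between 967 and 1239 intensity units, and 53.1% to 57.7% of the spots were well above background. Arrays of 1 group correlated across tested probes with Pearson's r of 0.985 to 0.995. Each of slides 1 to 3 held 1 array of each group, and on all 3 slides a group had the same place (place 3 for wild type at 0 h, place 4 for pTV), so place and group cannot be told apart. The brighter of the *Rela* probes read 1.04, 0.97 and 1.03 in wild type at 0 h and 1.00, 1.19 and 1.34 in pTV. These overlap (log2 difference −0.16, adjusted p = 0.486 by limma), and since the sources do not say which part of the transcript the probe reads, *Rela* does not check the labels. Of the fibroblast markers, 9 of 9 were well above background on all 6 arrays, with a summed signal of 1210 to 1410 times the 75th percentile in wild type and 1030 to 1220 in pTV. Macrophage and endothelial markers summed to at most 0.207. Of 6 macrophage markers, 1 was well above background on all 6 arrays and 4 on none (*Ptprc*, *Itgam*, *Emr1* and *Aif1*). Of 6 endothelial markers, 0 were so on all 6 arrays and 5 on none (*Pecam1*, *Cdh5*, *Tek*, *Kdr* and *Tie1*). For epithelial markers the sums were 0.304 to 0.347 in wild type and 0.399 to 0.507 in pTV, and for adipocyte markers 2.85 to 3.91 and 1.44 to 1.92. Skeletal muscle markers summed to 0.0772 to 0.127 in wild type and 0.125 to 2.18 in pTV, where *Myod1* read 1.09 in replicate 1 and *Myog*, *Des*, *Ckm* and *Myh3* were well above background on no array. *Pdgfra* and *Pdgfrb* were called higher in wild type (1.83 and 1.76) and *Thy1* lower (−0.95, under 1.8-fold at −0.81 without wild type replicate 2), and of the other lists *Fabp4* was called higher and *Krt18* lower. Their part in the results was not tested. In such cultures, a change in the share of a cell type cannot be told apart from a change per cell.

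A probe was tested where all 3 arrays of at least 1 group had it well above background, which held for 21624 probes (14533 gene names). It was called if the groups differed by more than 1.8-fold at an adjusted p under 0.05 (limma with the replicate number, which is the slide, as a block, and Benjamini-Hochberg adjustment over all tested probes). Higher in unstimulated wild type cells were 993 probes (823 names), or 4.59% of those tested, and lower were 616 (500 names), or 2.85%, so that 7.44% were called in all. The higher side reached further. Over 4-fold were 245 probes on the higher and 54 on the lower side, and over 16-fold 52 and 3. The median log2 difference over all tested probes was −0.002, with quartiles of −0.23 and 0.23. The arrays of the groups did not overlap for 983 of the 993 and 607 of the 616 called probes, as against 43.4% of all tested probes. For 145 of the higher probes no pTV array was well above background, and for 95 of the lower probes no wild type array was. Such genes have only a bound on one side, which is written as "at least". It sets the mean of the bright group against a floor for the dim one, which on each array is the dimmest signal that still stood well above background, or that of the gene itself where brighter. A gene with no measured pTV array was tested through the wild type group alone, so its difference was in part set by that filter. The same holds in reverse for a gene with no measured wild type array. The adjusted p beside a bound uses the dim group's signals, which were not well above background, and does not test the bound.

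**Figure D1:**
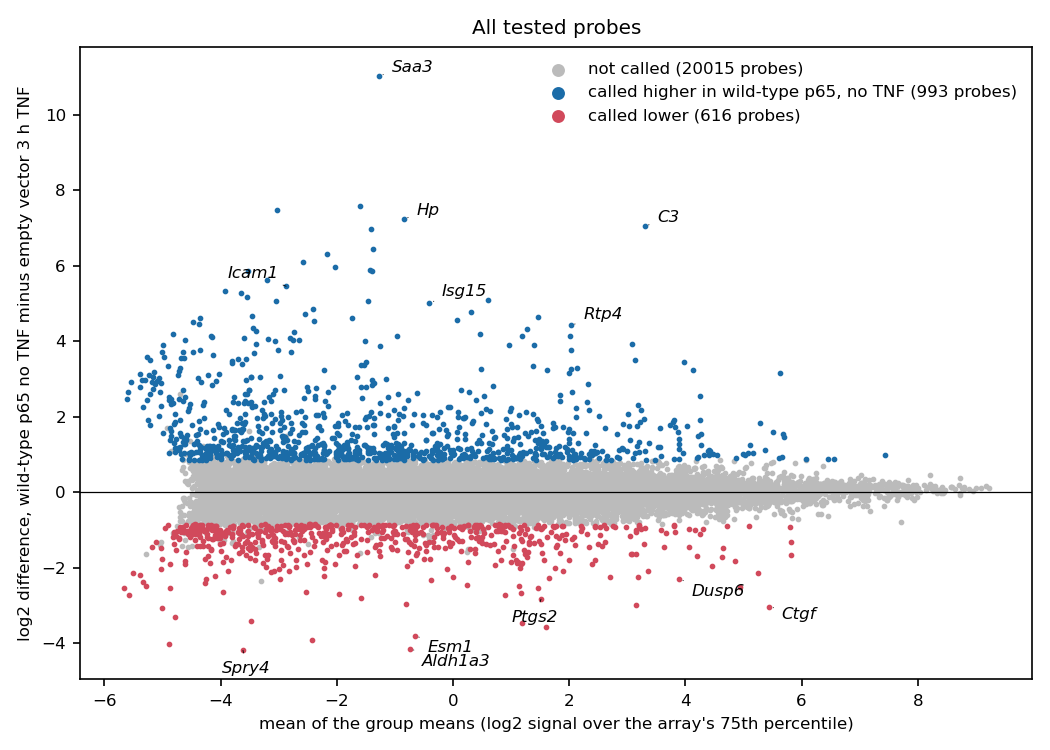
Log2 difference of wild type p65 at 0 h minus pTV at 3 h of TNFα (vertical axis) against the mean of both group means (horizontal axis, log2 signal over the array's 75th percentile) for the 21624 tested probes. Blue points are the 993 probes called higher in unstimulated wild type cells, red points the 616 called lower, grey points those not called. Values that were not well above background are drawn at their measured signal. The blue points reach 11.03 (*Saa3*), the red ones −4.18 (*Spry4*).

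Among genes measured on all 6 arrays, those highest in the unstimulated wild type cells were *C3*, *Saa1*, *Isg15*, *C1s*, *Gbp4*, *Slpi*, *Rtp4* and *Ifit3*. *C3*, the central complement component, read 7.05, 6.78 and 6.62 in wild type and 0.10, −0.66 and −0.10 in pTV, a 132-fold difference (log2 7.04 ± 0.12 SE, adjusted p = 4.8e-08). *Saa1*, an acute phase apolipoprotein, read 3.095, 3.34 and 2.97 in wild type and −2.49, −1.86 and −1.49 in pTV, a 33.9-fold difference (log2 5.08 ± 0.23, adjusted p = 1.9e-06). The weakest wild type array stood far above the strongest pTV array for both. *Slpi*, a secreted inhibitor of leukocyte proteases, was 23.8-fold higher (log2 4.57 ± 0.13, adjusted p = 1.7e-07), with 2.52, 2.29 and 2.27 against −2.14, −2.45 and −2.04. *Rtp4*, an interferon-inducible chaperone, was 21.4-fold higher (log2 4.42 ± 0.20, adjusted p = 1.9e-06). The others are described with their groups.

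The genes lowest in unstimulated wild type cells by the same rule were *Aldh1a3*, *Esm1*, *Sema7a*, *Stmn4*, *Ctgf*, *Hbegf*, *Dkk2* and *Ptgs2*. *Aldh1a3*, an enzyme of retinoic acid synthesis, read −3.20, −3.11 and −2.16 in wild type and 1.66, 0.49 and 1.83 in pTV, 17.7-fold higher in pTV (log2 −4.15 ± 0.21, adjusted p = 2.9e-06). *Esm1*, a secreted proteoglycan best known from endothelium, read −2.87, −2.49 and −2.31 against 1.05, 1.34 and 1.33, 13.9-fold higher in pTV (log2 −3.80 ± 0.12, adjusted p = 3.6e-07). No arrays overlapped for either gene. *Sema7a*, a membrane-anchored semaphorin, was 11.9-fold higher in pTV (log2 −3.58 ± 0.19, adjusted p = 4.3e-06), and *Stmn4*, a microtubule-binding stathmin, 11.0-fold (log2 −3.46 ± 0.11, adjusted p = 3.1e-07). With TNFα in wild type cells *Aldh1a3* differed by 0.83 (adjusted p = 0.0315) and *Esm1* by 0.67 (adjusted p = 0.0085), both under 1.8-fold, and at 3 h they were still −3.32 and −3.13 lower in wild type than in pTV. For *Sema7a* the change by TNFα was 1.49 (adjusted p = 0.00188) and the difference at 3 h −2.08. The pTV level was the highest of the 4 groups for each of these 4 genes.

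**Figure D2:**
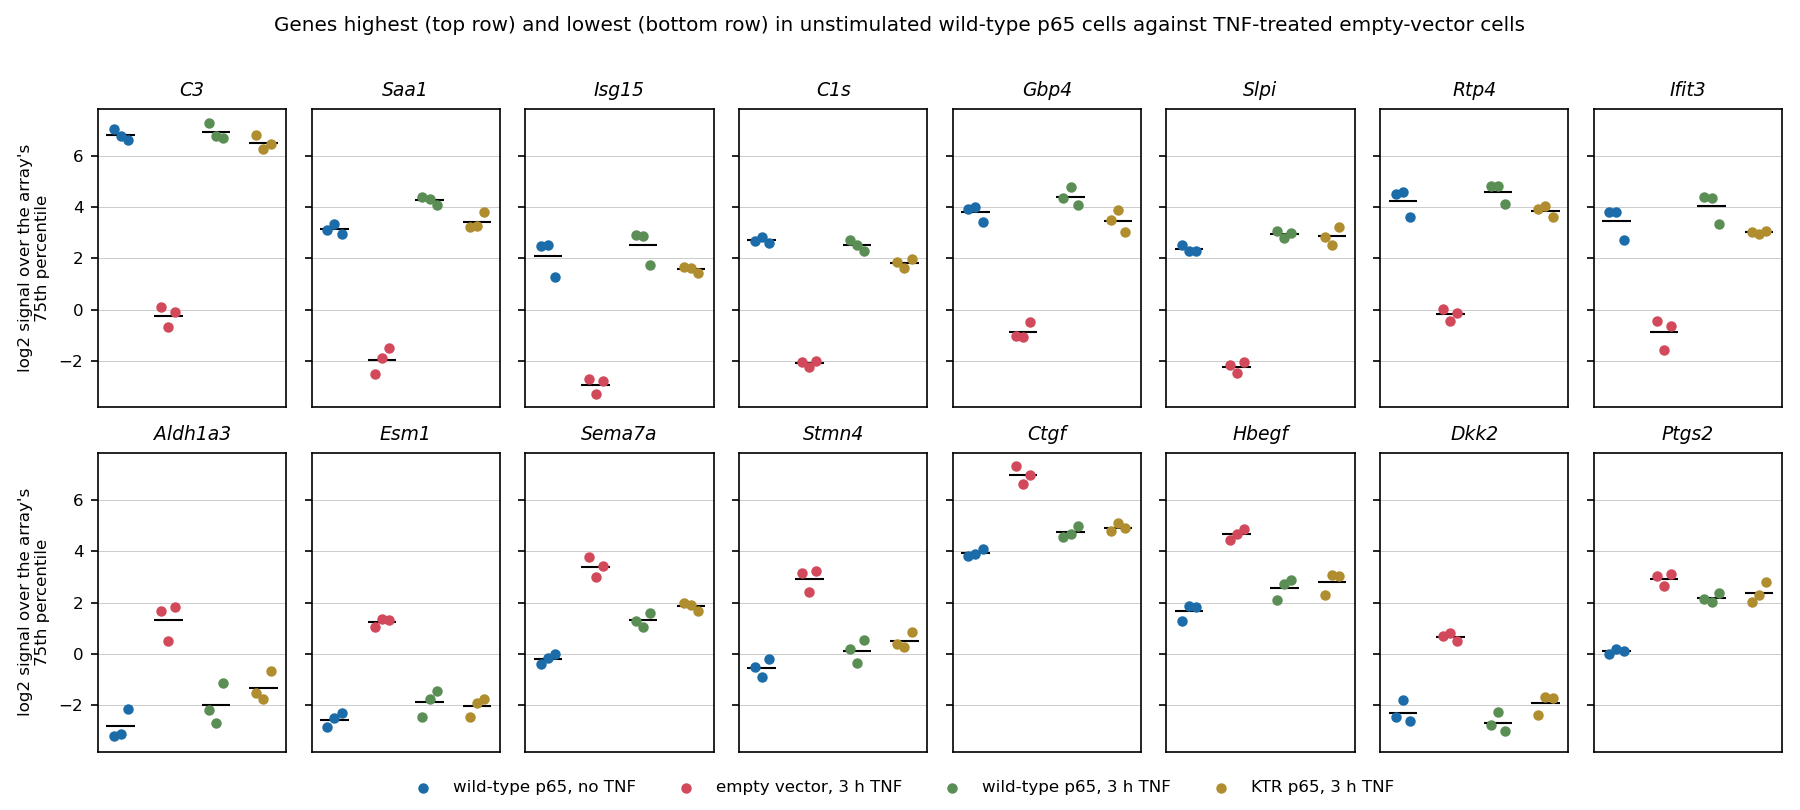
Log2 signal over the array's 75th percentile of 16 genes, 1 point per array and a bar for the mean, in wild type p65 without TNFα (blue), pTV (red), wild type p65 (green) and p65 with mutated acetylation sites, KTR (ochre), at 3 h of TNFα. In the top row all 3 pTV points lie below the 9 others, for example near 0 against 6.28 to 7.29 for *C3*, and in the bottom row they lie above them except for *Ptgs2*, where the highest KTR point (2.80) passes the lowest pTV point (2.65). Levels are not comparable between genes.

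Complement and acute phase genes were the list with the largest median. All 12 tested members (of 17) were called higher at rest, with a median log2 difference of 4.34, against 4.59% of all tested probes and a median of −0.002. *Saa3*, the serum amyloid A made outside the liver, read 4.47, 4.26 and 3.99 in wild type cells, and in pTV it was well above background on no array, so that it was at least 512-fold higher (adjusted p = 4.8e-08). *Hp*, which encodes the haemoglobin-binding protein haptoglobin, read 2.97, 2.66 and 2.67 in wild type and −4.37, −4.63 and −4.39 in pTV, where 2 of 3 arrays were well above background (log2 7.23 ± 0.22, adjusted p = 2.7e-07). For the complement proteases the differences were 4.78 (*C1s*, 27.5-fold, adjusted p = 1.7e-07) and 2.87 (*C1r*, 7.29-fold, adjusted p = 1.2e-06). *C1s* read 2.66, 2.85 and 2.58 in wild type and −2.03, −2.23 and −1.99 in pTV. *Cfb*, factor B of the alternative pathway, was at least 11.4-fold higher (adjusted p = 4.8e-07), from −1.04, −0.95 and −1.77 in wild type to no measured pTV array. Not tested were *C2*, *C4b*, *Cd55*, *Orm1* and *Serping1*. Of the 12 called members, 3 had no measured pTV array, and 7 were measured on all 12 arrays of the fit. *Saa1*, *Saa2* and *Saa3* are close copies whose probes may share signal.

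These genes differed in their values with TNFα in wild type cells, where 1.05% of all tested probes were called higher and 0.597% lower at 3 h than at 0 h. *C3*, *C1s*, *C1r* and *Hp* had changes of 0.10, −0.19, −0.04 and 0.02 (adjusted p = 0.632, 0.372, 0.849 and 0.956). *Ptx3*, a soluble pattern recognition protein, rose by a further 1.75 with TNFα (adjusted p = 0.00018), *Cfb* by 1.39 (adjusted p = 0.00218), *Saa3* by 1.18 (adjusted p = 0.00734) and *Saa1* by 1.13 (adjusted p = 0.0146). *Lcn2*, an iron-binding lipocalin, had 1.17 (adjusted p = 0.0692). Unstimulated wild type over pTV, the values of 2 of these genes were 3.30 for *Ptx3* and 2.78 ± 0.37 for *Lcn2*.

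Interferon-stimulated genes formed the largest group. Of 28 tested members, 27 were called higher in unstimulated wild type cells and 0 lower, against 4.59% and 2.85% of all tested probes. Their median log2 difference was 3.83, with members that had no measured pTV array entered at their signal there. The 17 measured on all 12 arrays ran from 0.68 (*Ifit2*) to 5.02 (*Isg15*), with *Ifih1* in the middle at 2.36. *Isg15*, a ubiquitin-like modifier, read 2.48, 2.54 and 1.29 in wild type and −2.71, −3.27 and −2.77 in pTV, a 32.5-fold difference (log2 5.02 ± 0.30, adjusted p = 6.5e-06). *Ifit3*, an antiviral protein that binds to its RNA-binding family members, read 3.81, 3.79 and 2.71 against −0.43, −1.56 and −0.64 (19.9-fold, log2 4.32 ± 0.35, adjusted p = 3.3e-05). *Oas1a*, a sensor of double-stranded RNA, read 1.22, 1.06 and −0.14 and was well above background on no pTV array, so at least 44.4-fold higher (adjusted p = 5.5e-07). In each of these the groups were far apart, and replicate 3 was the weakest wild type array. That held for 37 of the 39 tested interferon genes and GTPases at 0 h and for 38 in wild type cells at 3 h, where replicate 3 lay on the same slide. Without wild type replicate 3, 27 of 28 were called. Not tested were *Mx1*, *Oas2*, *Oas3* and *Oasl1*, and *Xaf1* had no probe. Of the 27 called members, 5 had no measured pTV array, and 16 were measured on all 12 arrays.

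The regulators of the pathway were among the members with smaller differences. *Stat2* differed by 1.97 (adjusted p = 9.2e-06), *Irf9* by 2.21 (adjusted p = 1.0e-05) and *Irf1* by 1.72 (adjusted p = 4.0e-06). *Irf7*, the interferon regulatory factor that is itself induced by interferon, differed by 3.24 ± 0.48 (adjusted p = 0.0009). It had a wide spread in pTV (−2.38, −5.05 and −4.10), where 2 of 3 arrays were well above background. The RNA sensors *Ddx58* (RIG-I) and *Ifih1* (MDA5) differed by 2.05 and 2.36. *Oasl2* reached 6.44 ± 0.43 and *Usp18*, which removes the ISG15 modifier, 5.89 ± 0.52, each with 2 of 3 pTV arrays well above background. The member not called was *Ifit2*, which passed on p (adjusted p = 0.00066) and missed on size, at 0.68 or 1.60-fold.

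In wild type cells this list had small changes with TNFα. The median change of the 28 genes from 0 h to 3 h was 0.17, and their median difference of wild type over pTV at 3 h was 4.14. *Isg15* changed by 0.42 (adjusted p = 0.399), *Ifit3* by 0.59 (adjusted p = 0.298) and *Oas1a* by −0.12 (adjusted p = 0.819). A change past 1.8-fold with an adjusted p under 0.05 was seen in *Parp14* (1.23, adjusted p = 0.00279) and *Irf1* (0.87, adjusted p = 0.0007).

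The interferon-inducible GTPases, which act on the vacuoles of intracellular pathogens, were also higher at rest. All 11 tested members were called higher, with a median of 3.88, against 4.59% of all tested probes. The median takes members with no measured pTV array at their signal there. The 7 measured on all 12 arrays ran from 1.42 (*Irgm1*) to 4.64 (*Gbp3*), with *Igtp* in the middle at 2.80. *Iigp1* was at least 20.6-fold higher (−0.06, −0.10 and −1.03 in wild type, no pTV array well above background, adjusted p = 1.4e-05), *Tgtp* at least 23.4-fold (adjusted p = 3.6e-06) and *Mpa2l*, now named *Gbp6*, at least 6.56-fold (adjusted p = 1.5e-05). The probe labelled *Gbp4*, whose accession now belongs to *Gbp3*, read 3.92, 4.02 and 3.43 in wild type and −1.01, −1.05 and −0.49 in pTV (log2 4.64 ± 0.24, adjusted p = 3.4e-06). Their median change with TNFα in wild type cells was 0.95, with 1.99 in *Mpa2l* (adjusted p = 0.00529), 2.25 in *Gbp5* (adjusted p = 0.0289) and 1.23 in *Gbp2* (adjusted p = 0.00589). The member *Gbp4* itself was not tested. Of the 11 called, 3 had no measured pTV array, and 7 were measured on all 12 arrays. With the normexp background correction 8 stayed called, without *Mpa2l* (1.33), *Gbp5* and *Ifi47*. Close copies in these families may share signal on a probe.

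Because these genes moved together, their promoters were read for 3 short patterns on both strands in the 300 bases from 250 before to 50 after each start (RefSeq starts, GRCm38.p6). The patterns were GGGANNTTC, the letters of an NF-κB site, TTCNNTTTC, the letters of an interferon-response element, and TGANTCA, those of an AP-1 site. TTCNNTTTC was in 8.56% of all 32851 promoters, in 6.95% of those of tested genes, 13.3% of those of genes called higher and 7.23% of those of genes called lower. Of 24 promoters found for interferon-stimulated genes 13 held it, and of 9 for the GTPases 7. GGGANNTTC was in 3.94% of all promoters, 3.61% for tested genes, 5.15% for genes called higher and 3.49% for genes called lower, and TGANTCA in 7.81%, 5.26%, 8.94% and 6.73%. GGGANNTTC was in 4 of 9 promoters of the chemokine and cytokine list, 2 of 18 of the feedback and survival list, 1 of 24 of the interferon-stimulated list, 0 of 11 of the complement and acute phase list and 0 of 11 of the metalloproteinase list. A match is a run of letters and not a bound site, and a promoter was found for 520 of the 704 current names called higher and 288 of the 396 called lower. A count of 0 holds for these letters in these 300 bases and does not show that NF-κB sites are absent. The paper searched a longer stretch before the start and reports several putative sites for *Mmp10* and *Cfb*. It found p65 recruited to *Cfb* and saw no enrichment at *Mmp10*. Below are the 160 bases before the start of 4 members, shown because they hold 2 or more copies or a second pattern close to the start. The letters of a match are in capitals, and bases are counted back from −1, the base before the start.
*Isg15* (chr4:156200819-156200978, minus strand): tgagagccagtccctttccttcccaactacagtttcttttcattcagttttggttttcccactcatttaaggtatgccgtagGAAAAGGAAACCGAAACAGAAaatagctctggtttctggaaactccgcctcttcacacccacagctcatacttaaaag
*Ifit3* (chr19:34583369-34583528, plus strand): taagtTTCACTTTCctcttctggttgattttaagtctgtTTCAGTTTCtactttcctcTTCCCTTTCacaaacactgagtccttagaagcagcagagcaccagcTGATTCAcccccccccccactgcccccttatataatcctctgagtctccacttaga
*Oas1a* (chr5:120907526-120907685, minus strand): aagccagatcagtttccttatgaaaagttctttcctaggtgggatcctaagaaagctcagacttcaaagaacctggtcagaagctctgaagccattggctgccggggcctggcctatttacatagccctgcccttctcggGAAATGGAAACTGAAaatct
*Gbp3* (chr3:142559884-142560043, plus strand): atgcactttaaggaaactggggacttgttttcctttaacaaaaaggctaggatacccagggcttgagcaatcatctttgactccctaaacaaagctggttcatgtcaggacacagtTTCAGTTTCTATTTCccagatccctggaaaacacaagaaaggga

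In these stretches the pattern began at −78, −72 and −66 on the opposite strand in *Isg15* and at −20 and −14 on the opposite strand in *Oas1a*. It began at −155, −121 and −102 on the same strand in *Ifit3*, which also held TGANTCA at −56, and at −44 and −38 on the same strand at the first of the 2 starts listed for *Gbp3*.

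Antigen presentation genes were higher at rest in all 15 tested members (median 1.84), against 4.59% of all tested probes. They take in genes that load peptides onto MHC class I molecules, the chains of these molecules and *Cd74*, the class II invariant chain. *Psmb8*, a subunit of the immunoproteasome, was at least 13.5-fold higher (−0.38, −0.99 and −1.65 in wild type, no pTV array well above background, adjusted p = 1.7e-07). *Tap1*, a subunit of the peptide transporter, was at least 3.26-fold higher (adjusted p = 5.7e-07), and its partner *Tap2* was measured in both groups and differed by 2.77 ± 0.12 (adjusted p = 1.6e-06). The class I heavy chain *H2-K1* read 4.59, 4.30 and 4.14 in wild type and 2.19, 1.91 and 2.01 in pTV (log2 2.31 ± 0.09, adjusted p = 6.9e-07). *B2m*, the light chain, differed by 1.04 ± 0.09 (adjusted p = 4.4e-05) at the brightest of 3 probes, by 1.11 at the second and by 0.16 (adjusted p = 0.353) at the dimmest. The heavy chain genes are near-identical, so their probes may share signal. With TNFα, the median change in wild type cells was 0.34 over this list. *Ciita* was not tested, and *Nlrc5* and *Psme2* had no probe. With the normexp background correction 7 of the 15 stayed called.

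Chemokines and cytokines, many of them textbook targets of NF-κB, gave a mixed picture. Of 13 tested members, 6 were called higher at rest and 1 lower, against 4.59% and 2.85% of all tested probes. The other 6 were not called, and the median was 0.78. *Tnf*, *Il1a*, *Il1b* and *Cxcl2* were well above background on no array of either group, *Csf3* was not tested and *Lif* had no probe. *Ccl20*, a chemokine for lymphocytes and dendritic cells, read −0.64, −0.23 and −0.96 in wild type and was at least 17.8-fold higher than in pTV (adjusted p = 7.2e-08). *Cxcl5*, a neutrophil chemokine, read 5.19, 4.74 and 4.69 against 1.85, 1.19 and 1.09 (11.3-fold, log2 3.50 ± 0.12, adjusted p = 4.5e-07), and *Ccl5*, a T cell chemokine, 7.33, 7.01 and 7.27 against 4.08, 3.65 and 4.42 (8.89-fold, adjusted p = 3.9e-07). For all 3 the groups lay well apart. *Cxcl10*, a chemokine that is induced by interferon and by NF-κB, read 2.01, 2.05 and 1.58 in wild type and 0.00, −0.31 and 0.14 in pTV (3.84-fold, log2 1.94 ± 0.19, adjusted p = 0.00033). It rose by a further 2.00 with TNFα in wild type cells (adjusted p = 0.00271).

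Several other cytokines missed the threshold of size here, of which *Il6* and *Csf1* passed both thresholds for a rise with TNFα in wild type cells. *Il6* differed by 0.71 ± 0.16 (adjusted p = 0.0081, under 1.8-fold), with 0.62, 0.34 and 0.36 in unstimulated wild type and −0.02, −0.82 and 0.03 in pTV, and it rose by 1.98 with TNFα in wild type cells (adjusted p = 0.00021). *Csf1*, the growth factor of macrophages, differed by 0.65 (adjusted p = 6.6e-05) and rose by 0.93 with TNFα (adjusted p = 7.3e-05). *Ccl2*, a monocyte chemokine, had overlapping arrays and a difference of 0.32 (adjusted p = 0.0198). *Cxcl1* did not overlap (5.92, 5.94 and 5.74 against 5.03, 5.13 and 5.11) and yet had an adjusted p of 0.217, since the spread is estimated over all 4 groups of the fit. *Csf2*, the granulocyte and macrophage growth factor GM-CSF, went the other way. It read −2.24, −2.13 and −2.45 in unstimulated wild type cells and −0.77, −0.77 and −0.51 in pTV, 3.01-fold higher in pTV (log2 −1.59 ± 0.12, adjusted p = 1.8e-05), while at 3 h of TNFα wild type cells stood 0.75 above pTV (adjusted p = 0.0015). The *Cxcl10* promoter is shown because, of the genes named here, it held all 3 patterns, GGGANNTTC at −159 on the same strand, TTCNNTTTC at −213 on the opposite strand and TGANTCA at −74.
*Cxcl10* (chr5:92348890-92349109, minus strand): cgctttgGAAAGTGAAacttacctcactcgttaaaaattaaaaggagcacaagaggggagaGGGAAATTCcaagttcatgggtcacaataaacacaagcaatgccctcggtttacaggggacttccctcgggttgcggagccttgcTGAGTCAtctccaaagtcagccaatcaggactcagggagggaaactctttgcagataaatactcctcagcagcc

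Feedback inhibitors and survival genes of NF-κB divided as well. Of 17 tested members, 5 were called higher at rest (*Tnfaip2*, *Tnfaip3*, *Sod2*, *Tnip1* and *Nfkbie*) and 2 lower (*Ier3* and *Traf1*). The other 10 were not called and the median was 0.51, where 4.59% of all tested probes were called higher and 2.85% lower. *Nfkbie*, an IκB, lay at the threshold (0.85, adjusted p = 0.0215). Its call was lost with quantile normalization (0.83), with no filter on dim probes (adjusted p = 0.0623), with normexp, and without pTV replicate 1 (0.65), pTV replicate 2 (0.84), wild type replicate 1 (0.89) or wild type replicate 3 (0.75). *Tnfaip3*, which encodes the ubiquitin-editing inhibitor A20, read 2.38, 2.35 and 2.26 in wild type and 0.92, 0.55 and 0.80 in pTV (2.98-fold, log2 1.57 ± 0.09, adjusted p = 4.9e-06). *Tnfaip2* differed by 2.59 ± 0.10 (adjusted p = 9.1e-07) and the mitochondrial superoxide dismutase *Sod2* by 1.55 ± 0.10 (adjusted p = 1.9e-05). *Nfkbia*, the gene of IκBα, differed by 0.44 ± 0.10, which is under 1.8-fold (adjusted p = 0.00806). *Birc3*, an inhibitor of apoptosis, read 2.17, 1.805 and 1.94 against 2.11, 1.87 and 1.86, a difference of 0.03 (adjusted p = 0.766), and rose by 1.29 with TNFα in wild type cells (adjusted p = 2.0e-05). *Nfkbib*, another IκB, likewise had −0.02 (adjusted p = 0.824) and 1.15 (adjusted p = 4.4e-05). *Ier3*, an early response gene linked to survival, read 1.38, 1.70 and 1.64 in wild type and 3.79, 3.81 and 3.86 in pTV, 4.76-fold higher in pTV (log2 −2.25 ± 0.08, adjusted p = 4.6e-07), and *Traf1*, an adaptor of TNF receptors, was 1.89-fold higher in pTV (log2 −0.92 ± 0.06, adjusted p = 1.0e-05).

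Core members of the pathway were called in both directions. Among 10 tested NF-κB subunits and kinases, 1 was called higher at rest (*Ikbke*, an IKK-related kinase, 1.05 ± 0.08, adjusted p = 1.9e-05) and 1 lower (*Map3k14*, the NIK kinase of the non-canonical pathway, −0.89 ± 0.10, adjusted p = 0.00016), with a median of 0.16, where 7.44% of all tested probes were called. *Map3k14* lay just past the threshold and had −0.83 without wild type replicate 1 and −0.77 without pTV replicate 1, which are under 1.8-fold. With normexp neither kinase was called, and *Rel* was not tested. *Nfkb1*, *Nfkb2* and *Relb* differed by 0.38, 0.16 and 0.48. Of 11 TNF receptors and adaptors, 1 was called higher, *Tnfrsf1b* (TNF receptor 2), with 1.57 ± 0.10 (adjusted p = 1.1e-05) at the brighter probe and −0.07 (adjusted p = 0.741) at the dimmer one. The main TNF receptor *Tnfrsf1a* differed by 0.31.

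Among adhesion molecules and innate receptors, 7 of 14 tested were called higher and 2 lower, against 4.59% and 2.85% of all tested probes. Their median was 0.58. *Icam1*, the ligand of leukocyte integrins, read 0.10, −0.03 and −0.51 in unstimulated wild type cells and was at least 24.5-fold higher than in pTV (adjusted p = 4.8e-07). It rose by a further 2.44 with TNFα (adjusted p = 0.00018). *Vcam1*, another integrin ligand, was measured in both groups and differed by 1.01 ± 0.10 (adjusted p = 9.4e-05), and *Tlr2*, a receptor of bacterial lipoproteins, by 2.66 ± 0.12 (adjusted p = 2.0e-06). *Nos2*, the inducible nitric oxide synthase, was at least 2.77-fold higher (adjusted p = 3.2e-06). With normexp the difference of *Nos2* was 0.26, below that bound, and its call was lost. *Ptgs2*, the inducible cyclooxygenase COX-2, read −0.02, 0.20 and 0.12 in wild type and 3.04, 2.65 and 3.104 in pTV, 7.11-fold higher in pTV (log2 −2.83 ± 0.15, adjusted p = 4.5e-06). It rose by 2.08 with TNFα in wild type cells (adjusted p = 0.00014), to 2.18 ± 0.17 (SD, n = 3). With normexp 4 members were called higher and 1 lower. *Ptges* was not tested.

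Of 18 tested metalloproteinases, their inhibitors and serpins, 6 were called higher at rest and 2 lower, against 4.59% and 2.85% of all tested probes. The median was 0.34. The stromelysin *Mmp3* read 1.24, 1.13 and 0.84 in wild type and −3.94, −4.77 and −3.26 in pTV, where 2 of 3 arrays were well above background (log2 5.06 ± 0.29, adjusted p = 5.4e-06). *Mmp13*, a collagenase, was at least 6.17-fold higher (−1.81, −2.20 and −2.39 in wild type, adjusted p = 1.6e-05), and *Mmp10*, a second stromelysin, differed by 1.24 ± 0.15 (adjusted p = 0.00033), from −2.71, −2.95 and −2.65 to −3.84, −4.64 and −3.56, with 2 of 3 pTV arrays well above background. With normexp the difference of *Mmp10* was 0.06 and its call and that of *Mmp13* were lost. The arrays did not overlap for these 3 genes, and each rose with TNFα in wild type cells, by 1.46, 1.42 and 1.39 (adjusted p = 0.0127, 0.0197 and 0.00086). Their inhibitors *Timp1*, *Timp2* and *Timp3* were not called (−0.12, 0.04 and −0.26), where the value of *Timp2* rests on 2 of the 3 pTV arrays. The urokinase gene *Plau* was lower at rest (−0.89, adjusted p = 0.0001), and under 1.8-fold without pTV replicate 1 (−0.83). The promoters of these 3 metalloproteinases are shown because each held TGANTCA close to its start, beginning at −46 in *Mmp3*, −63 in *Mmp10* and −35 in *Mmp13*. *Mmp13* also held TTCNNTTTC at −151 and −145. With normexp 2 members of the list were called higher and 0 lower. Over this list 5 of 11 promoters held TGANTCA.
*Mmp3* (chr9:7445662-7445821, plus strand): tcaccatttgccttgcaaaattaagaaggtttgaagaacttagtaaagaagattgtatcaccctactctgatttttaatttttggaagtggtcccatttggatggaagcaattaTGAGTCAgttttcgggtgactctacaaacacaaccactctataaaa
*Mmp10* (chr9:7502182-7502341, plus strand): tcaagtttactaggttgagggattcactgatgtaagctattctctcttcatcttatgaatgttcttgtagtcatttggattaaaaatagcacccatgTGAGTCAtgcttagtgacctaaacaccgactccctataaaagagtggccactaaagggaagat
*Mmp13* (chr9:7272354-7272513, plus strand): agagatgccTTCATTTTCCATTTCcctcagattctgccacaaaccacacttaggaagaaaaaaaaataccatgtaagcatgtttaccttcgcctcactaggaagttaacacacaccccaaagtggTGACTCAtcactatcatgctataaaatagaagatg

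**Figure D3:**
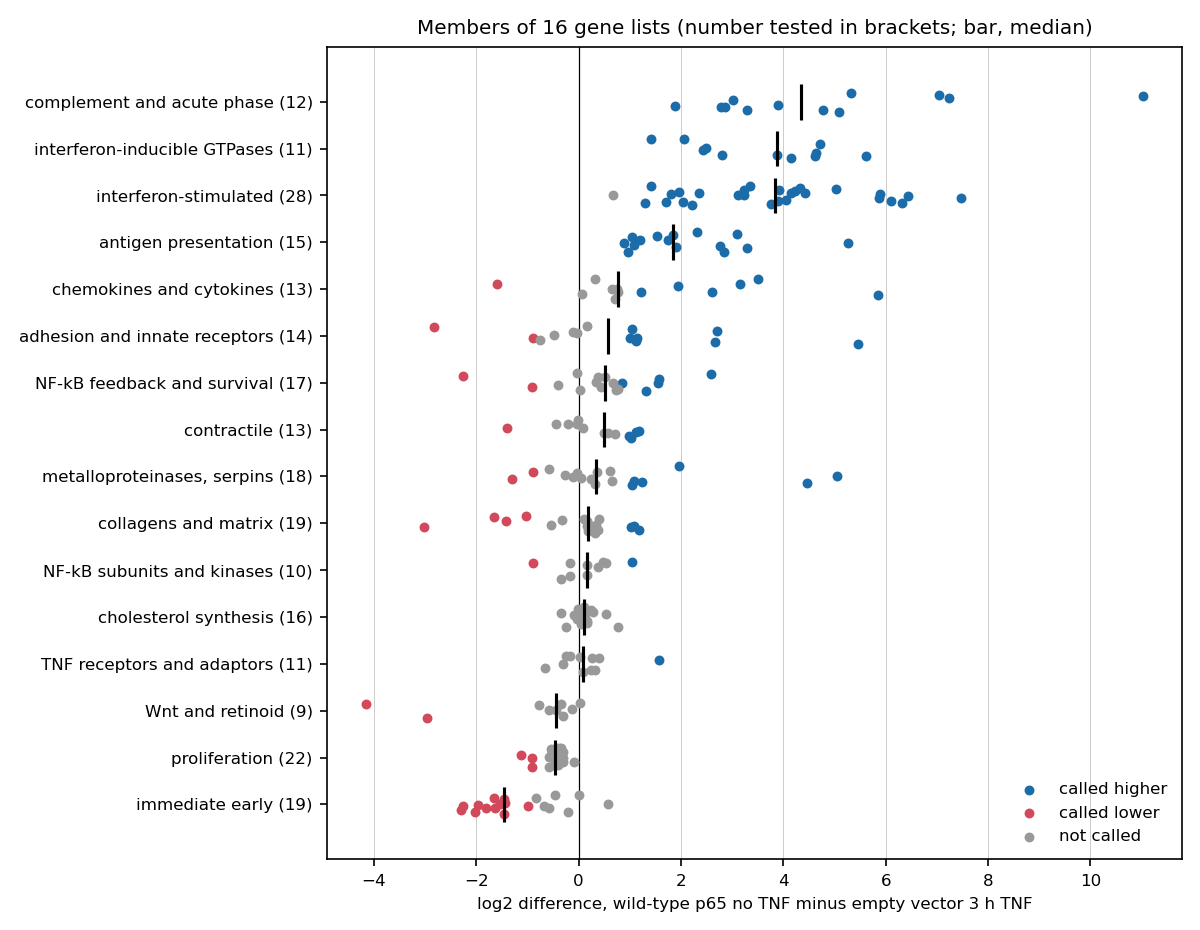
Log2 difference of wild type p65 at 0 h minus pTV at 3 h of TNFα (horizontal axis) for the tested members of 16 gene lists, 1 point per gene and a black bar for the median. Blue points were called higher in unstimulated wild type cells, red points lower. Groups not above background enter at their measured signal. The medians run from 4.34 for complement and acute phase genes to −1.45 for immediate early genes.

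Immediate early genes, which respond quickly to MAP kinases, were the list with the lowest median (−1.45). Of 19 tested members, 12 were called lower in unstimulated wild type cells and 0 higher, against 2.85% of all tested probes called lower, and 7 were lower with normexp. *Dusp5* had no probe. *Dusp6*, a phosphatase that is induced by ERK and inactivates it, read 2.63, 2.76 and 2.83 in wild type and 4.85, 4.97 and 5.30 in pTV, 4.94-fold higher in pTV (log2 −2.30 ± 0.09, adjusted p = 7.0e-07). *Fosl1*, the AP-1 subunit Fra-1, read 0.52, 0.47 and 0.58 against 3.07, 2.58 and 2.70 (4.80-fold higher in pTV, adjusted p = 1.4e-06). The groups were far apart for both. *Jun* differed by −1.803 ± 0.07 (adjusted p = 1.1e-06), *Fos* by −1.66 ± 0.14 (adjusted p = 3.3e-05), *Egr1*, a zinc finger factor, by −1.45 ± 0.08 (adjusted p = 4.9e-06) and the stress factor *Atf3* by −2.02 ± 0.11 (adjusted p = 4.3e-06). *Myc* was just past the threshold at 1.98-fold. Not called were *Klf4*, *Klf2*, *Fosl2*, *Zfp36*, *Junb*, *Jund* and *Fosb*, from 0.57 (*Klf4*) to −0.83 (*Fosb*), where the value of *Jund* rests on 2 of the 3 pTV arrays. At a second, dimmer probe *Ier2* was not called (−0.73), and *Klf2* was called higher.

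In wild type cells the median change with TNFα was 0.98 over the list, and at 3 h the median difference of wild type over pTV was −0.41. *Egr2* rose by 1.74 (adjusted p = 0.00019), *Fos* by 1.47 (adjusted p = 0.00037) and *Egr1* by 1.04 (adjusted p = 0.00018). At 3 h, wild type and pTV differed by 0.20 for *Egr2* (adjusted p = 0.311) and by −0.19 for *Fos* (adjusted p = 0.327). For *Dusp6*, *Jun* and *Fosl1* wild type cells were also below pTV at 3 h, by −1.33, −1.22 and −0.96 (adjusted p = 1.2e-05, 7.4e-06 and 0.00014). A p that misses the threshold does not show that *Egr2* and *Fos* were equal in the TNFα-treated groups.

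**Figure D4:**
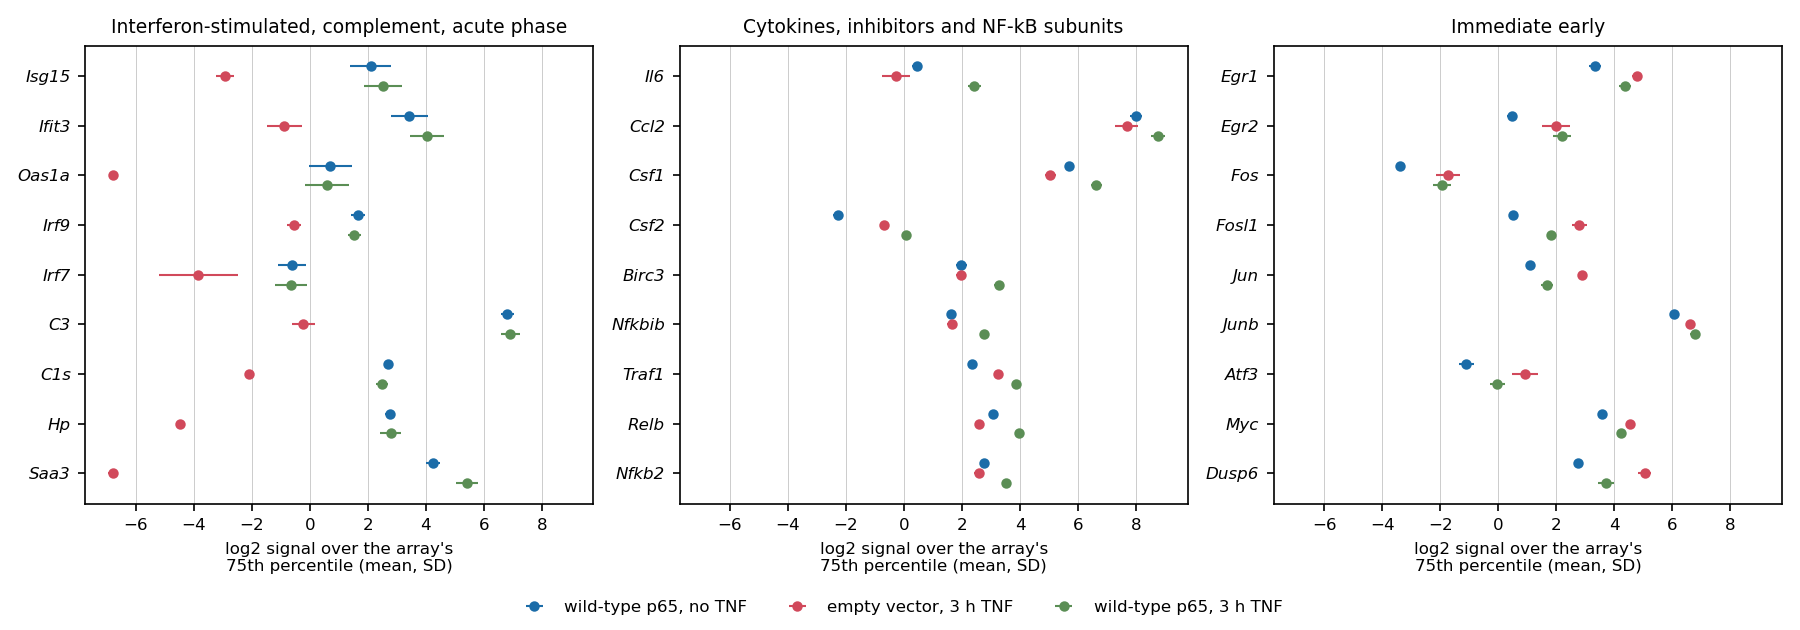
Mean log2 signal over the array's 75th percentile with its SD (n = 3) in wild type p65 without TNFα (blue), pTV at 3 h (red) and wild type p65 at 3 h of TNFα (green). In the left panel blue lies far above red, as for *C3* with 6.82 (blue), −0.22 (red) and 6.92 (green). In the right panel blue is the lowest of the 3 in each gene, as for *Fosl1* with 0.52 (blue) against 2.78 (red) and 1.82 (green). The red points of *Oas1a* and *Saa3* are measured signals that were not well above background. Levels are not comparable between genes.

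Among collagens and matrix genes, 3 of 19 tested were called higher at rest (*Postn*, *Lox* and *Dcn*) and 4 lower, with a median of 0.19. The shares of all tested probes were 4.59% and 2.85%. With normexp 1 member was called higher and 2 lower. *Dcn* was under 1.8-fold without wild type replicate 2 (0.83). The fibrillar collagens *Col1a1*, *Col1a2* and *Col3a1* differed by 0.32, 0.17 and 0.38, none past 1.8-fold. *Ctgf* (now *Ccn2*), a matricellular growth factor, read 3.80, 3.89 and 4.09 in wild type and 7.30, 6.60 and 6.96 in pTV, 8.14-fold higher in pTV (log2 −3.03 ± 0.18, adjusted p = 6.0e-06), and its relative *Cyr61* (now *Ccn1*) was 3.14-fold higher (log2 −1.65 ± 0.08, adjusted p = 2.7e-06), though not called with normexp. With TNFα their values in wild type cells were 0.81 and 0.58 higher, both under 1.8-fold. Tenascin C (*Tnc*) and thrombospondin 2 (*Thbs2*) were lower in unstimulated wild type cells than in pTV, at −1.42 and −1.02. At 3 h wild type cells were also below pTV, at −0.83 and −1.31.

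Contractile genes were called higher in 4 of 13 tested members and lower in 1, against 4.59% and 2.85% of all tested probes. With normexp the counts were 1 and 1. The actins *Acta1*, *Actc1* and *Acta2* and the myosin light chain *Myl9* were higher, by 1.19, 1.12, 0.99 and 1.02. *Acta2* was so at 2 of 4 probes. *Smtn* (smoothelin) was 2.62-fold higher in pTV (log2 −1.39 ± 0.07, adjusted p = 2.0e-06). *Acta1* read 2.55, 2.54 and 2.50 in wild type and 1.28, 1.41 and 1.33 in pTV, and it moved by −0.01 with TNFα in wild type cells (adjusted p = 0.947). In the Wnt and retinoid list, 2 of 9 were called lower and 0 higher, against 2.85% and 4.59% of all tested probes. Besides *Aldh1a3* this was *Dkk2*, a secreted Wnt modulator, with −2.47, −1.79 and −2.61 in wild type and 0.68, 0.81 and 0.50 in pTV (7.73-fold higher in pTV, adjusted p = 6.5e-06). It changed by −0.39 with TNFα (adjusted p = 0.176).

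Proliferation genes had small differences. All 22 tested members were below 0, from −0.09 to −1.13 (median −0.45), and for 17 the arrays did not overlap, as against 21% of all tested probes with all wild type arrays below. Past 1.8-fold were 3, *Ccnd1* (cyclin D1, 2.19-fold higher in pTV, adjusted p = 1.6e-05), *Ccne1* (cyclin E1, 1.88-fold, at the brighter of 2 probes) and *Rrm2* (a subunit of ribonucleotide reductase, 1.89-fold). *Rrm2* was under 1.8-fold without wild type replicate 2 (−0.85) and *Ccne1* without pTV replicate 1 (−0.84). With normexp 0 of the 22 were called. Cholesterol synthesis genes had a median of 0.10, and limma called 0 of 16. Of these 16, 6 had an unadjusted p under 0.05, and 1 was called without wild type replicate 2.

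Genes measured in 1 group but not the other were ranked by their bounds. The 4 highest in wild type cells were *Saa3*, *Ch25h*, *Oas1f* and *Zbp1*. *Ch25h*, which makes the oxysterol 25-hydroxycholesterol and is interferon-inducible in many cells, read 2.54, 2.19 and 1.81 in wild type and was at least 123-fold higher (adjusted p = 1.7e-07). *Oas1f*, of the oligoadenylate synthetase family, was at least 113-fold higher, and *Zbp1*, a sensor of left-handed nucleic acids, at least 54.0-fold (1.41, 1.29 and 0.28 in wild type). On the other side, *Spry4*, a feedback inhibitor of receptor tyrosine kinase signalling, read −1.56, −1.50 and −1.50 in pTV and was at least 8.58-fold higher there (adjusted p = 7.7e-06). *Plekha6* was at least 7.21-fold, *1110001M24Rik* at least 3.92-fold and *Cage1* at least 3.35-fold higher in pTV (adjusted p = 1.2e-06, 0.00162 and 0.00388). With normexp none of these 4 kept its call.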

How the data were processed

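RNA of 14 samples was measured on 1-colour (Cy3) Agilent Whole Mouse Genome arrays, of which the 6 of wild type p65 at 0 h and pTV at 3 h were compared. The authors deposited the scanner output of Agilent Feature Extraction (version 9.1 per the labels), in which each spot has an intensity corrected for background and not scaled between arrays. The authors' normalized intensities, deposited as a matrix, were an alternative. On each array 99.7% to 99.8% of their probes lay within 1% of the scanner value times a single factor. The study names Rosetta Resolver for its own analysis, which was not repeated.

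Control spots and spots marked as outliers (1 to 108 on the 6 arrays) were removed, replicate spots averaged, each array divided by its 75th percentile and log2 taken. Probes with signal well above background throughout at least 1 of the groups were tested with limma 3.58.1 in R 4.3.3 (package data.table, version 1.17.8) on 12 arrays (wild type at 0 h and 3 h, KTR and pTV), which share the estimate of the spread. The replicate number was a block. It is also the slide, and deviations from group means correlated at 0.319 to 0.645 for the 18 array pairs with the same number and at −0.539 to 0.12 for the 36 others. Of the tested probes, 105 lacked a value on 1 of the 6 arrays. A gene of a list is read by its brightest tested probe. Probes were named by accession through RefSeq (GRCm38.p6, 22951 of 41174 probes found), else by the name in the file, and current names are given where they matter. The promoters are RefSeq's of the same build.

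Named were the 8 highest and 8 lowest called genes measured on all 6 arrays without overlap, the 4 highest bounds on each side, the 2 called members of each list with the largest difference, other members by their role, and *Rela*, *Mmp10*, *Mmp13*, *Cfb*, *Mpa2l* and *Cxcl10*. Some genes that the rule names are not reported here. The comparison, its gene lists and this rule were chosen with earlier results of these data known. The test was also run on simulated data. Alternatives were the background correction, scaling, filters, thresholds, the block, the arrays in the fit and leaving out each array.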

Additional observations from a re-analysis of the deposited data

How the results depend on the processing

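The calls were recomputed under 17 alternatives. Without the replicate block, 978 probes were higher and 593 lower in unstimulated wild type cells. With only the 6 arrays there were 1001 and 630, and leaving out 1 array at a time gave 971 to 1034 higher and 555 to 695 lower. The normexp background correction moved both counts past 1.5 times, to 305 higher and 148 lower, of which 301 and 148 were also in the original calls, and the cause was not tested. Under it the interferon-stimulated list kept 23 called members, the GTPases 8, complement and acute phase genes 8, antigen presentation 7 and immediate early genes 7 lower. Requiring a signal on all 12 arrays of the fit left 669 higher and 428 lower, and no filter gave 1213 and 792. That filter takes out genes measured in 1 group alone, with 16 interferon-stimulated, 7 GTPase and 7 complement and acute phase genes left called. A filter on any of the 4 groups, chosen after seeing the data, gave 1056 and 617. Of 887 values of 57 named genes under the alternatives, 868 kept direction and call, 19 lost the call and 0 reversed. Of the 19, 16 were under normexp: *Spry4*, *Plekha6*, *1110001M24Rik*, *Cage1*, *Psmb8*, *Tap1* (to 0.35), *Mmp10* (to 0.06), *Mmp13*, *Cyr61*, *Krt18*, *Ccnd1*, *Rrm2*, *Ikbke*, *Map3k14*, *Mpa2l* and *Cfb*. The others were *Map3k14* and *Rrm2* without 1 array. Following all 133 called members of the lists, an alternative added after seeing the data, 50 lost the call under normexp, where *Tlr3* turned in sign (−0.05), 9 in at least 1 fit without 1 array (*Nfkbie*, *Map3k14*, *Rrm2*, *Ccne1*, *Plau*, *Dcn*, *Thy1*, *Cd44* and *H2-M3*) and 1 under another alternative (*Nfkbie*). Dim probes limit the precision, as does the number of arrays.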

Other observations

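Genes that are induced by ERK signalling or feed back on it were collected after the values of *Spry4*, *Dusp6* and *Hbegf* had been seen. All 13 had a tested probe. Of these, 10 were called lower in unstimulated wild type cells and 0 higher, against 2.85% and 4.59% of all tested probes. The median log2 difference was −1.85. The EGF receptor ligands *Hbegf* and *Areg* were 7.97-fold and 15.1-fold higher in pTV (adjusted p = 4.5e-07 and 4.8e-07), with 1.28, 1.86 and 1.83 in wild type and 4.44, 4.65 and 4.87 in pTV for *Hbegf*. For *Areg* 1 of 3 wild type arrays was well above background. Another ligand, *Ereg*, was 2.92-fold higher in pTV at its brighter probe and missed the fold at the other (−0.78). The phosphatase *Dusp4* (−2.08), the transcription factor *Etv4* (−1.19) and *Phlda1* (−1.94) were also called, while *Spry1*, *Spred1* and *Spred2* were not (−0.48, −0.18 and −0.47). *Spry2* was called at the brighter of 2 probes and had −0.02 at the other. At 3 h of TNFα, wild type cells were below pTV for *Hbegf* by −2.10, for *Areg* by −1.87 and for *Dusp4* by −1.44, and above it for *Ereg* by 0.85. With normexp 7 stayed called, without *Spry4*, *Dusp4* and *Etv5*. These genes were chosen with their values in view, so no test is given for the list.

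Interferons and their receptors were looked up likewise. *Ifnb1*, *Ifna4* and *Ifng* were well above background on no array of either group. The receptor chain *Ifnar2* was 1.94-fold higher in unstimulated wild type cells (2.37, 2.02 and 2.32 against 1.37, 1.35 and 1.13, adjusted p = 0.00012). *Ifnar1*, *Ifngr1*, *Ifngr2*, *Jak1*, *Tyk2* and *Irf3* were not called, with differences from −0.10 to 0.68.

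*Xist*, the noncoding RNA that silences an X chromosome, was found among the called probes. It read −2.17, −2.02 and −2.48 in wild type cells at 0 h, was well above background on no pTV array and was at least 5.80-fold higher (adjusted p = 6.6e-08), a call that was lost with normexp. In wild type cells its difference with TNFα was −0.09 (adjusted p = 0.611), and in KTR it was well above background on no array. The Y-linked genes *Ddx3y*, *Eif2s3y*, *Uty* and *Kdm5d* were well above background on no array of the 6. Whether the selected pools differ in more than p65 was not tested. *Myod1*, a muscle factor, read 1.09 in pTV replicate 1 and −3.76 and −3.73 in the other pTV arrays, and was not called (adjusted p = 0.0659).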
